A study of Caenorhabditis elegans with 2 samples.

Results

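The regions described here lay in introns of protein-coding genes, away from small RNA genes, and were 7900 of the 30000 candidate regions (26.3%) in the list made from both replicates pooled. By its label that list holds peaks and background, as input to the authors' reproducibility filter. A region in it is therefore not by itself a binding site. A region was taken in by its summit, the point of strongest signal that the authors gave for it. The summit had to lie inside a protein-coding transcript but in no exon of a coding gene, and not from 1000 bp before to 200 bp after any coding gene's 5′ end. It also had to be more than 300 bp from any tRNA, snoRNA, snRNA or microRNA gene and outside long noncoding RNA genes. The rule's coding 5′ ends were read as gene ends. Where the 5′ end of every coding transcript was kept clear instead, 6721 regions remained, and 33 of the 57 strong regions described below were among them. The assay was chromatin immunoprecipitation with sequencing of MADF-2, a protein with a MADF domain, in whole Caenorhabditis elegans late embryos. There was 1 group of 2 biological replicates, both of strain OP587, with the genotype unc-119(tm4063) III and the transgene insertion wgIs587. The transgene made MADF-2 with GFP and FLAG at its C terminus, the antibody recognised GFP, and the embryos, of both sexes, were taken 3 hours after synchronisation by bleaching of eggs. Control libraries were not analysed here and there was no second condition, so signal was compared between places in the genome and not between treatments.

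Introns are removed from the transcript, but their DNA can hold enhancers and the promoters of shorter transcript forms, and in worms the first intron is often long and a common place for such elements. MADF domains contact DNA and are akin to the Myb fold. Many worm genes have several annotated starts, and a start inside an intron of the longest form can, but need not, give a protein with another N terminus.

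The summit sequences below show the range of base composition and motifs among the strongest intronic regions. Each is a summit with 50 bases on either side, on the plus strand of build ce11 (WBcel235), from the RefSeq assembly. Capitals mark GAGAG or its complement CTCTC and the CpG-rich word CGCG, and, in the windows of unc-104 and srt-52 alone, a stretch common in tRNA genes that was picked out after the windows had been read.
T18D3.9, intron 5, chrX:12452267-12452367: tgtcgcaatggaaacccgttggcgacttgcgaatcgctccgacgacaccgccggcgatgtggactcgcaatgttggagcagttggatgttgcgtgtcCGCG
myrf-2, intron 1, chrX:10188650-10188750: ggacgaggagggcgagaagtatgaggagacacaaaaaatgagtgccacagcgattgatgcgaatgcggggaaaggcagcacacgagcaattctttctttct
cab-1, intron 1, chrX:12205663-12205763: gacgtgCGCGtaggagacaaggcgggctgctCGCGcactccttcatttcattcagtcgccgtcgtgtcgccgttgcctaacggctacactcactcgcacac
T24B8.3, intron 2, chrII:9060465-9060565: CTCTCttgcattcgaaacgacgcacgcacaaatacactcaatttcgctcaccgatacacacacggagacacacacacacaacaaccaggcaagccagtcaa
mdt-26, intron 2, chrII:5661819-5661919: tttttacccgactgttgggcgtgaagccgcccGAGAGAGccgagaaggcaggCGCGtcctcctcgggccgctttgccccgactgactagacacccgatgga
mpz-1, intron 35, chrII:10744974-10745074: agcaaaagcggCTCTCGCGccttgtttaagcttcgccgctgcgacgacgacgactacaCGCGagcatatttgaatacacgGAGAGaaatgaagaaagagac
Y53G8AM.8, intron 4, chrIII:3271757-3271857: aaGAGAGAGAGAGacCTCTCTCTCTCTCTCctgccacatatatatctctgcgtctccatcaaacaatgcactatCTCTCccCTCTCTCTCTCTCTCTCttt
unc-104, intron 5, chrII:7001560-7001660: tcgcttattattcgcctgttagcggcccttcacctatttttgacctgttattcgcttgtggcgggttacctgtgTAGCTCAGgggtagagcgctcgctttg
srt-52, intron 2, chrV:53425-53525: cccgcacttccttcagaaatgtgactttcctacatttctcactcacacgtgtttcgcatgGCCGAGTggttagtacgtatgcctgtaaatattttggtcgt
usp-39, intron 8, chrII:2570692-2570792: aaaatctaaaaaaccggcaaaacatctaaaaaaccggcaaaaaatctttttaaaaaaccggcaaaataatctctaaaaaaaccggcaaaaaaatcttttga

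Strong regions were rare among the intronic regions away from small RNA genes. The optimal list holds the regions kept by the authors' reproducibility filter. It includes some that overlapped no region in the list of a replicate. Of the 7900 intronic regions, 57 were in the optimal list. That is 0.722% (95% Wilson interval 0.557 to 0.934), against 715 of the 22100 other pooled regions (3.24%, 3.01 to 3.48), where 2.57% of all pooled regions were optimal. The odds ratio was 0.217 (95% limits 0.166 to 0.285, adjusted p = 1.67e-41, two-sided Fisher's exact test, Benjamini-Hochberg over 3 tests). The other pooled regions were not cleared of those near small RNA genes or inside long noncoding RNA genes, so the groups compared were filtered differently. The 772 optimal regions were exactly the 772 of highest pooled signal value, so this comparison sets strong against weak regions of one list. The odds ratio was 0.356 (0.281 to 0.449) for the strongest 772 regions of replicate 1 alone and 0.216 (0.167 to 0.28) for those of replicate 2 alone. It was 0.127 (0.078 to 0.207) when the stronger 50% of the optimal regions alone were counted as optimal. Regions are not replicates, and the test describes these lists.

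The optimal share of the intronic regions lay above that of exonic regions, 13 of 8138 (0.16%, 0.0934 to 0.273), and below that of intergenic regions, 94 of 5381 (1.75%, 1.43 to 2.13). Promoter regions had the highest share of these 4 classes, 354 of 7064 (5.01%, 4.53 to 5.55), all away from small RNA genes. Summits inside long noncoding RNA genes were kept in the promoter class but left out of the other classes, so the promoter share was not filtered alike. Against intergenic regions alone, a comparison added after the data were seen, the odds ratio of intronic regions was 0.409 (0.294 to 0.569). Over all intron summits, those near small RNA genes or in long noncoding RNA genes included, 171 of 8495 were optimal (2.01%, 1.74 to 2.33), near the 2.57% over all pooled regions. Outside the class, 102 of the 264 intron summits within 300 bp of a small RNA gene were optimal (38.6%, 33 to 44.6), and so were 12 of the 331 that lay inside a long noncoding RNA gene and near no small RNA gene (3.63%, 2.09 to 6.23).

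**Figure D1:**
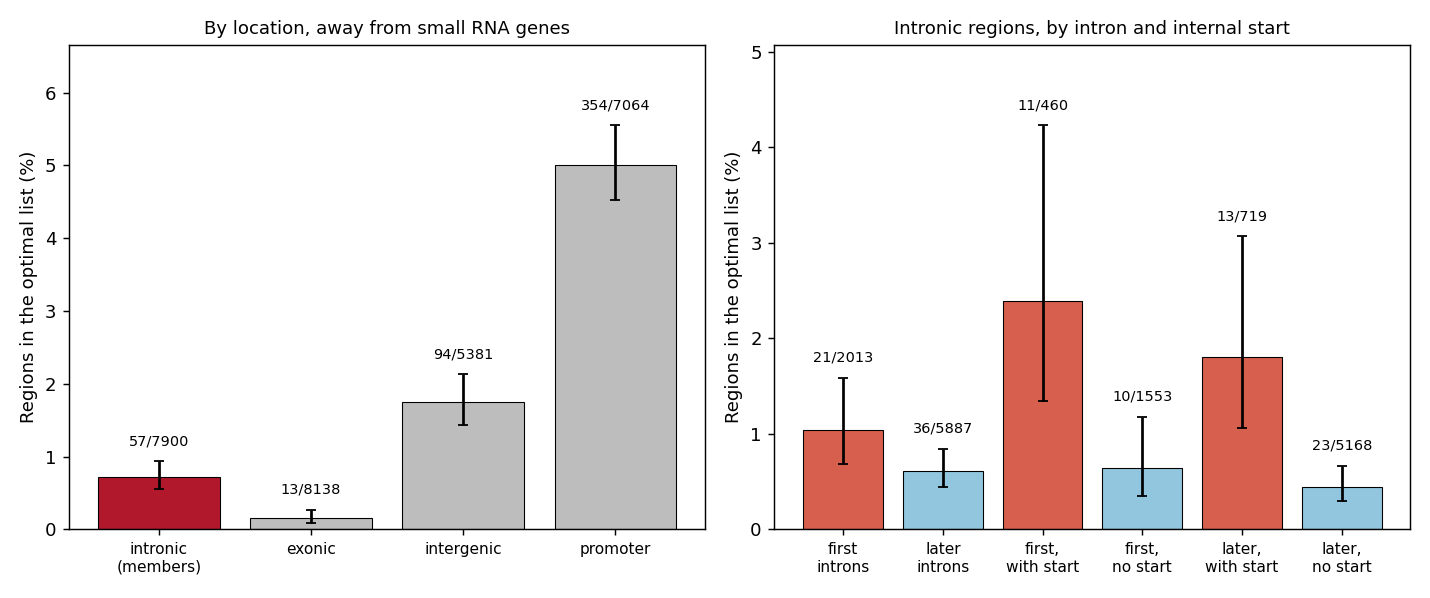
Percent of regions in the optimal list, with the count over the number of regions above each bar and 95% Wilson intervals as error bars. Intronic regions (57 of 7900) sat between exonic and intergenic ones in the left panel, and in the right panel both bars for regions with an annotated internal start were above their partners without one. The promoter bar keeps summits inside long noncoding RNA genes, which the other bars of the left panel leave out.

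The pooled signal value of the 57 optimal intronic regions had a median of 81.3 (lowest 69.8, highest 542), against 24.3 for the other 7843 intronic regions (17.5 to 69.5) and 96.5 for the 715 other optimal regions (69.6 to 1036). These values were deposited by the authors for each region, on a scale that is not stated, and served here to order and describe regions within a list. The last intronic regions inside the optimal list were Y39A1C.1 at 69.8, lit-1 at 70.1 and egl-30 at 70.7. The first intronic regions outside it were gly-9 at 69.5, csnk-1 at 69.3 and egl-44 at 68.5. Of the 20 strongest pooled regions 2 were intronic, and of the 200 strongest, 10.

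The strongest intronic region lay in intron 5 of 6 of T18D3.9 on chromosome X, with a summit at 12452317. Its signal value was 542 in the pool, 304 in replicate 1 and 234 in replicate 2, ranks 7, 5 and 17 of those lists. It lay 677 bp from the nearest exon and 2140 bp downstream of the gene start, no internal start was annotated in its window, and its summit had 60.4% GC with 14 CpG pairs in the window printed above. No small RNA gene was annotated within 5859 bp.

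The next region lay in intron 1 of myrf-2, one of the worm's myelin regulatory factor genes, which encode membrane-bound transcription factors, with a summit at 10188700 on chromosome X. Its signal value was 390 in the pool, 218 in replicate 1 and 175 in replicate 2. The summit was 5677 bp downstream of the gene start but 230 bp upstream of the nearest of 5 internal starts of myrf-2 in its window. The region of cab-1, whose protein is known to bind the synaptic regulator AEX-3, reached 225 in the pool, 121 in replicate 1 and 104.99 in replicate 2. It lay at the far end of a first intron of 7199 bp, 81 bp upstream of an internal start and 56 bp from a noncoding RNA gene. T24B8.3 had 216 in the pool, 145 in replicate 1 and 85.7 in replicate 2, with an internal start 421 bp downstream. All 4 were among the strongest 772 regions of each replicate.

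**Figure D2:**
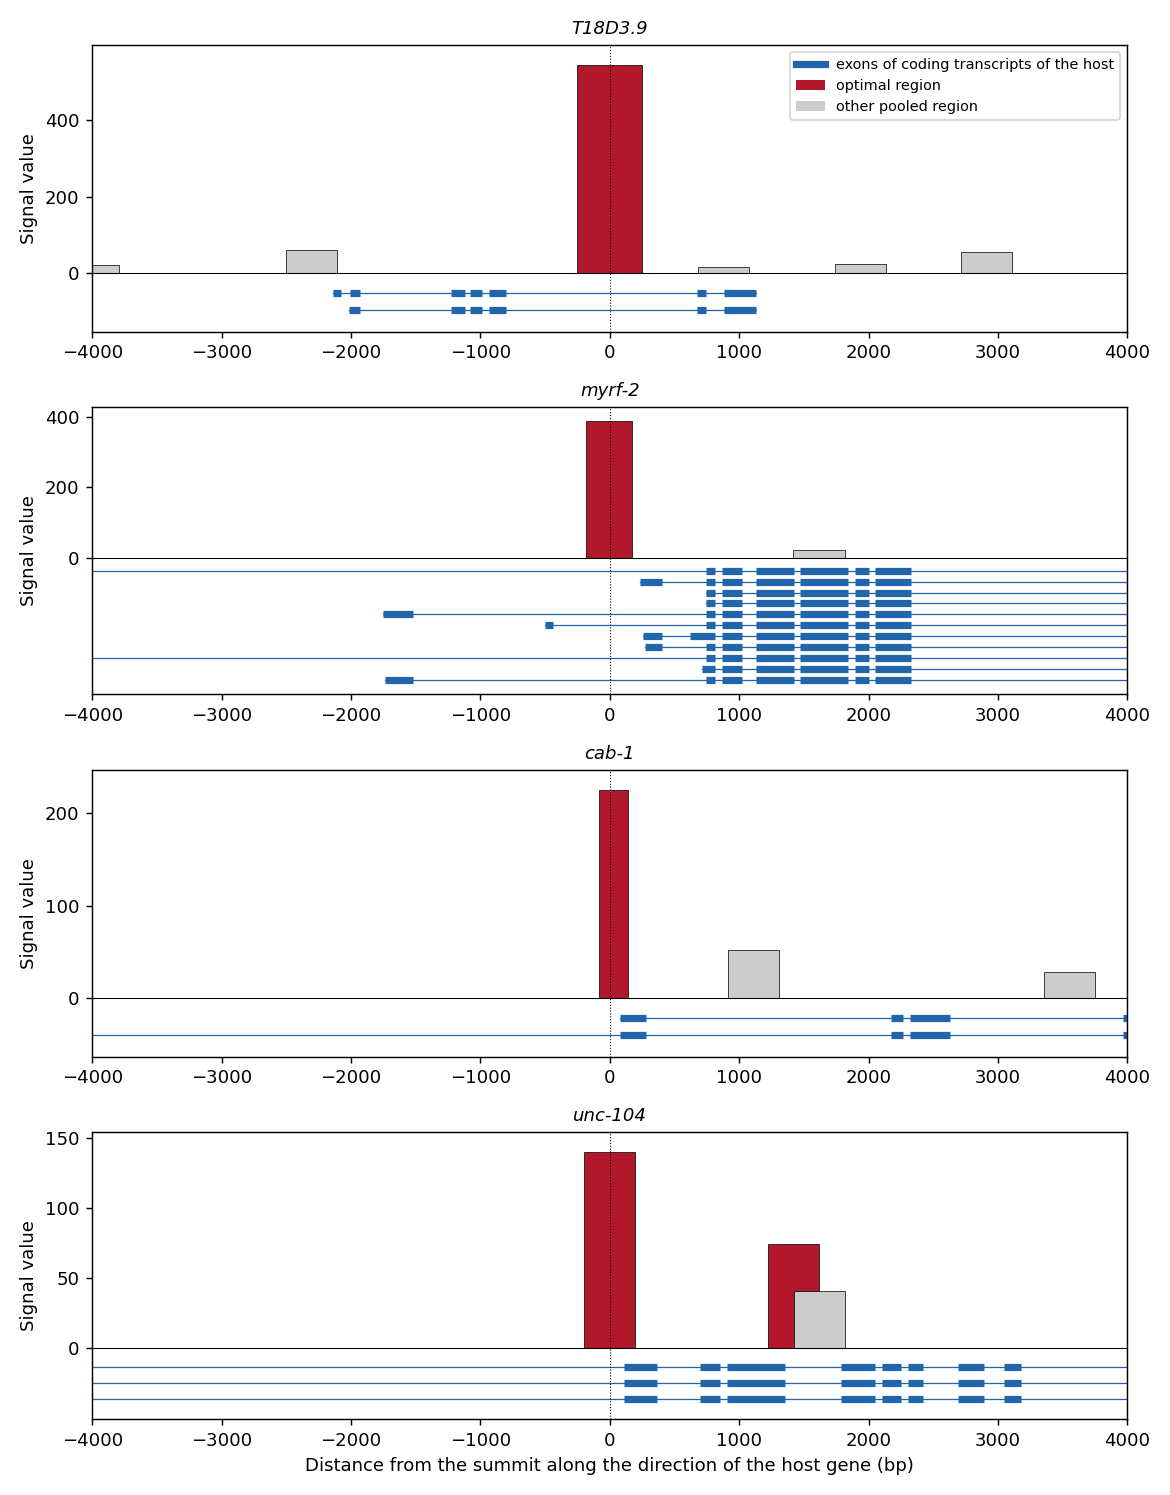
Signal value of pooled regions (bars, dark red for optimal) above the exons of the host gene's coding transcripts (blue) around the summit of the T18D3.9, myrf-2, cab-1 and unc-104 regions; the horizontal axis is the distance from the summit in bp along the host gene. The myrf-2 and cab-1 summits lay 230 and 81 bp upstream of an annotated transcript start, while the T18D3.9 summit lay 677 bp from any exon.

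In later introns, mom-1, the worm homologue of Porcupine that acts on Wnt ligands before secretion, had 155 in the pool, 80.6 in replicate 1 and 75.2 in replicate 2. The kinesin gene unc-104, which carries synaptic vesicle precursors along axons, had 140 in the pool, 98.4 in replicate 1 and 43.7 in replicate 2. Its summit was 17 bp from an annotated tRNA pseudogene, which the rule for small RNA genes does not count, and 1383 bp from the nearest small RNA gene. A second optimal region lay 1422 bp from it. The region of let-526, an ARID-family subunit of the SWI/SNF chromatin remodelling complex, had 134 in the pool, 89.6 in replicate 1 and 47.7 in replicate 2. The Mediator subunit gene mdt-26 had 131 in the pool, 67.4 in replicate 1 and 71.0 in replicate 2. Its summit lay in a short intron, 651 bp from another optimal region. The promoter of mdt-26 held an optimal summit, which may be that other region. Of these 4 later-intron regions, unc-104 and let-526 had the wider gaps between replicates.

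In first introns, K05C4.2 had 177 in the pool, 67.6 in replicate 1 and 108 in replicate 2. T02E1.2 had 130 in the pool, 83.0 in replicate 1 and 45.1 in replicate 2. The ESCRT-II gene vps-25, which acts in sorting at endosomes, had 118 in the pool, 59.3 in replicate 1 and 59.5 in replicate 2. The cohesin loader gene scc-2 had 113 in the pool, 52.7 in replicate 1 and 60.5 in replicate 2. Each of these 4 summits was upstream of an internal start of its own host, by 278, 178, 134 and 173 bp in the order given.

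The other regions among the strongest 20 had lower values than the 10 strongest. The pooled values were 130 for srt-52, of a chemoreceptor family, 128.95 for ldb-1, which encodes a LIM domain-binding protein, and 107 for usp-39. They were 106 for pqn-41, 102 for the La-related RNA-binding protein gene larp-1, 93.1 for Y53G8AM.8, 91.0 for K10C3.4 and 88.7 for mbk-2, a DYRK-family kinase gene. The larp-1 region had 71.0 in replicate 1 and 34.6 in replicate 2, outside the strongest 772 of replicate 2. The usp-39 region had 80.1 in replicate 2 and no overlapping region in replicate 1, alone among the 57. RefSeq marks 96% of its window as repeat, and its GC of 27.7% was the lowest of the 57. Of all 57 regions, 6 had over 50% of the window marked as repeat (10.5%, 4.91 to 21.1), against 2513 of the other 7843 (32%, 31.0 to 33.1).

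Of the 57, 56 overlapped a region in both replicate lists, and 22 (38.6%, 27.1 to 51.6) were among the strongest 772 of both, against 433 of the 715 other optimal regions (60.6%, 56.9 to 64.1). Replicate 1 alone placed 19 of them in its strongest 772, replicate 2 alone 11, and neither did for 5. Since the optimal list was made from these replicates, this is a description without a test. In the stronger 50% of the optimal list, by pooled signal, 15 of 17 intronic regions (88.2%, 65.7 to 96.7) were among the strongest 772 of both, against 348 of 369 others (94.3%, 91.5 to 96.2). In the weaker 50%, a split added after the data were seen, 7 of 40 intronic regions were (17.5%, 8.75 to 31.9), against 85 of 346 others (24.6%, 20.3 to 29.4). Pooled signal and replicate rank come from the same libraries, so the difference between the splits is largely fixed by how they were made. Within each split the intervals of intronic and other regions overlapped, and 40 of the 57 intronic regions were in the weaker one. Spearman's rho between the 2 replicate values was 0.344 over 56 optimal intronic regions and 0.531 over 710 other optimal regions, whose values share the libraries and a lower bound on the pooled signal. Opposite cases, picked out after their values were seen, were aak-2 and miz-1. The gene aak-2, which encodes a catalytic subunit of the energy-sensing kinase AMPK, had 75.8 in the pool, 58 in replicate 1 and 18.3 in replicate 2. The gene miz-1 had 72.7 in the pool, 23 in replicate 1 and 57.6 in replicate 2. In turn, 12 of the 7843 other intronic regions were among the strongest 772 of both replicates.

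**Figure D3:**
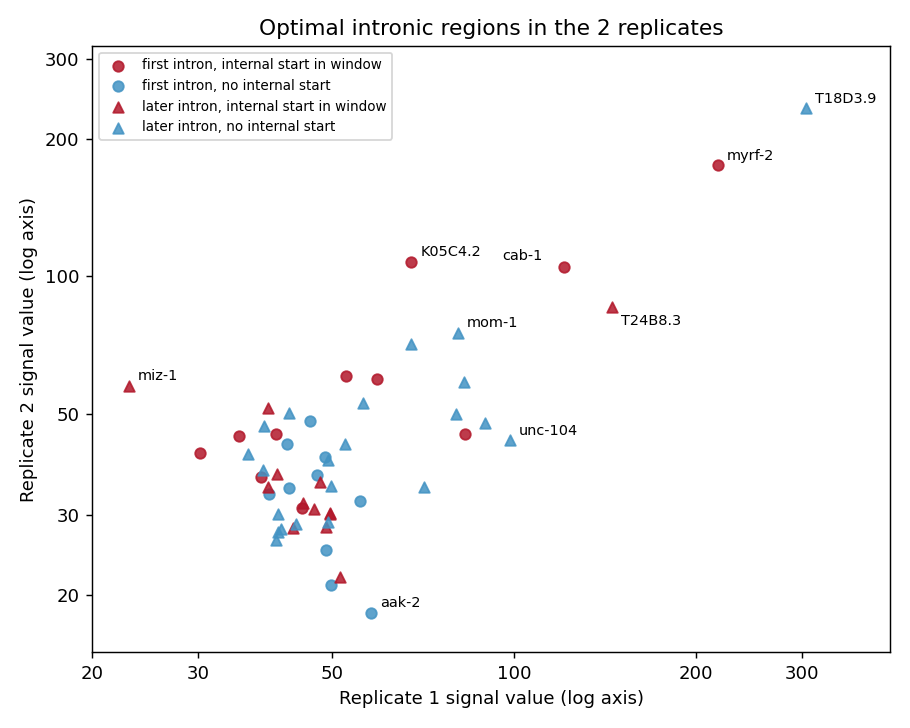
Signal value in replicate 1 (horizontal, log axis) and in replicate 2 (vertical, log axis) of the 56 optimal intronic regions found in both lists; circles are first introns, triangles later ones, and red marks an internal start in the window. The strongest regions, T18D3.9 and myrf-2, were high in both replicates, while most of the rest lay below 100 in each and spread widely.

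First introns had the higher share, but the difference did not pass the threshold. Numbered along the longest coding transcript with the summit in an intron, first introns held 21 optimal regions of 2013 (1.04%, 0.683 to 1.59) and later introns 36 of 5887 (0.612%, 0.442 to 0.845). The odds ratio was 1.71 (95% limits 0.998 to 2.94, adjusted p = 0.0655, two-sided Fisher's exact test). By intron number, 12 of 1288 regions in intron 2 were optimal (0.932%), 4 of 965 in intron 3 (0.415%), 7 of 802 in intron 4 (0.873%) and 13 of 2832 in intron 5 or beyond (0.459%), so the share did not fall evenly. The result depended on the definition: of 16 distinct alternatives, 7 passed the threshold and 9 did not. Counting an intron that is first in any transcript gave 2.0 (1.18 to 3.37), and the regions of replicate 2 alone gave 1.34 (0.789 to 2.29), with those of replicate 1 alone at 2.08 (1.32 to 3.27).

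Intron length moved with intron number. Intronic regions in first introns lay in introns of median length 2552 bp, against 1067 bp in later introns. In introns of at least 1000 bp, the odds ratio of first against later introns was 1.18 (0.662 to 2.1). The share was higher in first introns in 4 of 5 length classes. Up to 500 bp, 1 of 260 regions in first introns (0.385%) and 1 of 1488 in later introns (0.0672%) were optimal. Above 500 and up to 1000 bp, the counts were 2 of 316 (0.633%) in first introns and 2 of 1301 (0.154%) in later introns. From 1001 to 2000 bp, where the order turned, they were 0 of 303 (Wilson upper limit 1.25%) in first introns and 13 of 1162 (1.12%, 0.655 to 1.9) in later introns. From 2001 to 5000 bp, 11 of 489 (2.25%, 1.26 to 3.98) in first introns and 11 of 1017 (1.08%, 0.605 to 1.93) in later introns were optimal. Above that length, 7 of 645 (1.09%) in first introns and 9 of 919 (0.979%) in later introns were. Most of these counts are small. The part of length in the comparison of first and later introns was not tested beyond these values.

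Strong intronic regions often lay upstream of an annotated start inside the gene. A 5′ end of another coding transcript, one that is not a gene end, fell in the window of 1000 bp downstream to 200 bp upstream of the summit for 24 of the 57 optimal regions (42.1%, 30.2 to 55), against 1155 of the 7843 other intronic regions (14.7%, 14 to 15.5). The odds ratio was 4.21 (95% limits 2.48 to 7.15, adjusted p = 9.35e-07, two-sided Fisher's exact test), and it passed the threshold under all 12 alternatives in which it could be computed, at 2.94 to 4.63. The comparison exists only where 5′ ends are read as gene ends, since the window is the one the rule uses. Keeping every coding transcript's 5′ end clear removed all 24 optimal and all 1155 other regions with an internal start. The share of optimal regions was 2.39% (11 of 460) with an internal start and 0.644% (10 of 1553) without one in first introns. It was 1.81% (13 of 719) with and 0.445% (23 of 5168) without one in later introns. In introns of at least 1000 bp the odds ratio was 2.97 (1.68 to 5.23).

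All 24 of these summits lay upstream of the nearest internal start, at a median of 244 bp (quartiles 126 and 549, from 18 to 858). Each of the 24 had an internal start of its host gene in the window. For the 1155 other regions, 1088 lay upstream, at a median of 352 bp over all of them, and 1142 had an internal start of their host. The window reaches 1000 bp upstream of a start but 200 bp downstream, and exons were left out. An upstream position is thus largely fixed by the rule. Besides the regions already given, the strongest with an internal start were in pptr-2, which encodes a regulatory subunit of the phosphatase PP2A, in dnj-20 of the DnaJ chaperone family, and in anc-1, which anchors nuclei. The pptr-2 region had 85 in the pool, 39.2 in replicate 1 and 51.5 in replicate 2, with a start 91 bp downstream. The dnj-20 region had 83.7 in the pool, 49.5 in replicate 1 and 30.2 in replicate 2, with a start 476 bp downstream. The anc-1 region had 82.5 in the pool, 35.0 in replicate 1 and 44.7 in replicate 2, with a start 202 bp downstream.

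Among regions without an internal start, the 33 optimal ones had a median distance from the nearest exon of 906 bp (quartiles 458 and 1575), against 242 bp (82 and 797) for the 6688 others. Among regions with one, whose distance from an exon is at most 1000 bp by definition, the 24 optimal ones had a median of 216 bp (107 and 421), against 218 bp (85 and 483) for the 1155 others. These distances are a description without a test. The 33 optimal regions without an internal start lay in introns of median length 3793 bp, and the 24 with one in introns of 2785 bp. The part of intron length in these distances was not tested. The deepest was in lsy-22, 5583 bp from any exon in a first intron of 11392 bp, with 79 in the pool, 42 in replicate 1 and 43 in replicate 2. It was followed by lir-1 at 4418 bp, which had 72.7 in the pool, 47.1 in replicate 1 and 36.6 in replicate 2; both were chosen after their values were seen.

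Optimal intronic regions lay in longer introns, with a median length of 3475 bp (quartiles 1572 and 5545), against 1239 bp (557 and 3968) for the other intronic regions. Their median distance from the nearest exon was 489 bp (178 and 1154), against 238 bp (82 and 691), a difference of 251 bp. This difference was 371 bp from replicate 1 alone and 100 bp from replicate 2 alone. It was 39 bp within introns of at least 1000 bp, and -9 bp when the stronger 50% of the optimal regions alone were counted as optimal. No test was made of these distances.

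The optimal intronic regions were richer in GC and CpG than the other intronic ones, by description and without a test. GC in the summit windows, of the length printed above, averaged 51.2 ± 6.78% (SD over 57 regions), against 41 ± 8.295% for the 7843 other intronic regions, and 50.7 ± 6.88% for the 715 other optimal regions. The difference of 10.1 percentage points was 9.1 from replicate 1 alone and 11.1 from replicate 2 alone. The number of CpG pairs averaged 7.02 ± 3.39, against 4.16 ± 2.69 in the other intronic regions and 7.23 ± 3.095 in the other optimal regions. In both averages the optimal intronic regions lay nearer to the other optimal regions than to the other intronic regions. GC content can change the recovery of fragments in sequencing, and its part in the signal was not tested.

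**Figure D4:**
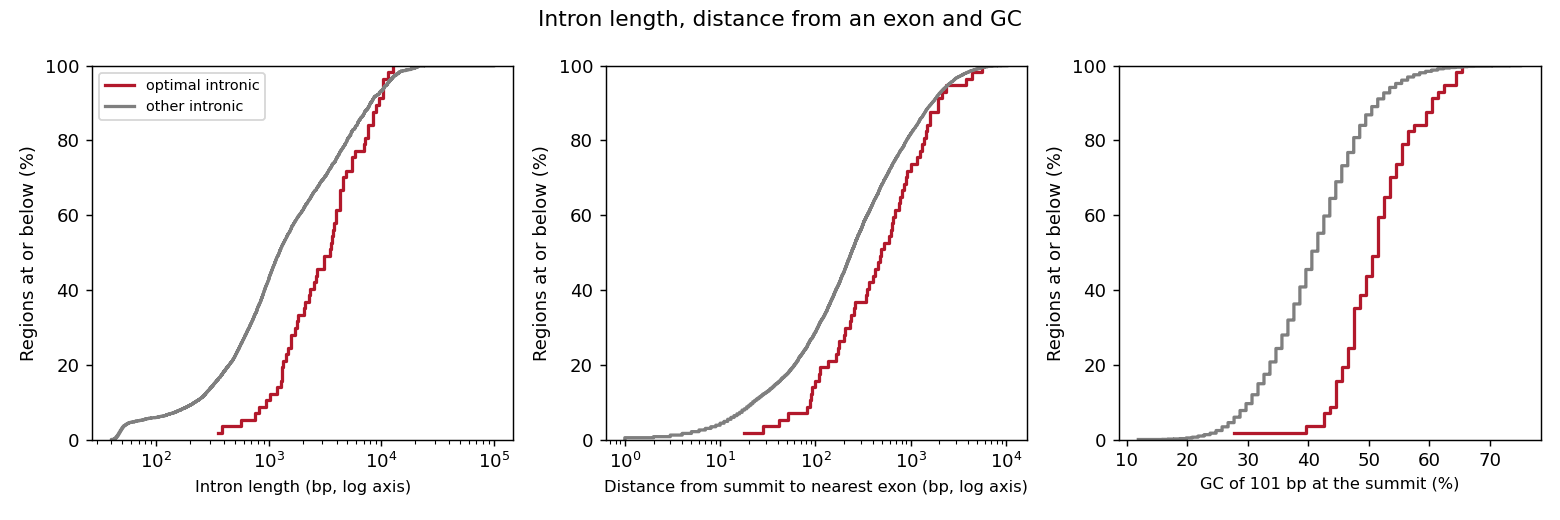
Cumulative percent of regions at or below each intron length (bp, log axis), distance from the summit to the nearest exon (bp, log axis) and GC of the window around the summit (%), for the 57 optimal intronic regions (red) and the 7843 others (grey). The red curves lie to the right over most of their range in all 3 panels, with medians of 3475 against 1239 bp, 489 against 238 bp and 51.5 against 40.6% GC.

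The motif words were counted on both strands of the same summit windows, without a test. GAGAG, the core of the GAGA element known from flies, was in 26 of the 57 optimal intronic regions (45.6%, 33.4 to 58.4), against 18.2% of the other intronic regions (17.4 to 19.1), and in 22.3% of all pooled regions. CGCG was in 27 (47.4%, 35.0 to 60.1), against 17.3% (16.5 to 18.2), and in 18% of all pooled regions. Within windows of 45 to 60% GC, a band set after GC had been seen, GAGAG was in 43.9% of 41 optimal against 26.9% of 2316 other intronic windows, and CGCG in 46.3% against 29.2%. In the 715 other optimal regions the shares were 41.7% for GAGAG and 48% for CGCG.

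The other words were in few of the optimal intronic windows. TTTCAG, the consensus of the worm 3′ splice site, was in 1 of 57 (1.75%, 0.31 to 9.29), against 17.4% of the other intronic windows (16.5 to 18.2), 4.2% of the other optimal regions and 14.4% of all pooled ones. A window reaches 50 bases from the summit, and optimal intronic summits lay farther from exons (median 489 bp, against 238 bp for the other intronic ones). The part of this distance in the TTTCAG counts was not tested. TATAAA, of the TATA box, was in 0 of 57 (Wilson upper limit 6.31%), against 6.67% of the other intronic windows, 3.5% of the other optimal regions and 5.53% of all pooled windows. GATAA, the core bound by GATA factors, was in 7.02% (2.76 to 16.7), against 15.2% of the other intronic windows, 9.65% of the other optimal regions and 16.3% of all pooled windows. Within 45 to 60% GC the gaps were smaller, with GATAA in 7.32% of 41 optimal against 9.54% of 2316 other intronic windows, TATAAA in 0 of 41 (Wilson upper limit 8.57%) against 2.63%, and TTTCAG in 0 of 41 against 9.07%. GTTCGA, the core of the tRNA B box, was in 1.75% (0.31 to 9.29), against 2.96% of the other intronic windows and 13.7% of the other optimal regions, with 4.03% over all pooled windows. The E-box CACGTG was in 1.75%, against 2.42%, and in 2.42% of all pooled windows. CTGTTTCA, the motif upstream of piRNA genes, was in 0 of 57 (Wilson upper limit 6.31%), against 0.357%, and in 0.397% of all pooled windows. The tRNA stretch TAGCTCAG marked in the unc-104 window was in 15 of the 7843 other intronic windows, and GCCGAGT of the srt-52 window in 85; over all pooled windows they were in 0.43% and 1.18%.

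The 57 optimal regions lay in introns of 55 genes, out of 3811 that hosted any intronic region. K10C3.4 and pqn-41, a gene of a glutamine-rich protein, had 2 each. The pair in K10C3.4 was in one first intron of 5545 bp, 1458 bp apart, with 91.0 and 87.9 in the pool, 45.8 and 55.5 in replicate 1, and 48.1 and 32.2 in replicate 2. The summit of the region with 91.0 in the pool was 26 bp from a noncoding RNA gene. The pair in pqn-41 was in one intron of 10372 bp, 1634 bp apart, with 106 and 74.7 in the pool, 56.2 and 49.8 in replicate 1, and 52.7 and 34.6 in replicate 2. The promoter of the host also held an optimal summit for 6 of the 57 (10.5%, 4.91 to 21.1), against 248 of the 7843 others (3.16%, 2.8 to 3.57). Unlike the promoter class above, this count took in optimal summits near small RNA genes. A noncoding gene or pseudogene that the rule does not exclude lay within 300 bp of the summit for 8 of the 57 (14%, 7.29 to 25.3). The same held for 586 of the 7843 other intronic regions (7.47%, 6.91 to 8.07). MADF-2's own gene was not among the hosts of optimal regions.

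Optimal regions were found in hosts of 6 of 11 gene lists, in small numbers, and their shares stand beside the 0.722% over all intronic regions. The lists are partial, so the hosts named are not all of their kind. For example, crh-1 is listed, while crh-2, a host of an optimal region, is in none. Signalling genes had 4 of 240 regions optimal (1.67%, 0.65 to 4.21), in mom-1, lit-1, pdk-1 and aak-2. The Nemo-like kinase gene lit-1, of the Wnt pathway, had 70.1 in the pool, 48.7 in replicate 1 and 28.2 in replicate 2. The insulin pathway kinase gene pdk-1 had 70.9 in the pool, 40.3 in replicate 1 and 26.5 in replicate 2. Synaptic and neuronal genes had 2 of 183 (1.09%, 0.3 to 3.9), in unc-104 and in egl-30, a Gq alpha subunit gene with 70.7 in the pool, 40.4 in replicate 1 and 45.2 in replicate 2. The egl-30 summit was 18 bp upstream of an internal start, the closest of all.

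Homeobox genes had 1 of 87 (Wilson interval 0.203 to 6.23%), in the Meis-family gene unc-62, which had 74.8 in the pool, 38.1 in replicate 1 and 36.3 in replicate 2, with its summit 51 bp upstream of the nearest of 5 internal starts. The other transcription factors had 1 of 187 (0.535%, 0.0945 to 2.97), in myrf-2. Genes of the cytoskeleton and membrane traffic had 1 of 151 (0.662%, 0.117 to 3.66), in vps-25, and chromatin and RNA regulators 1 of 107 (0.935%, 0.165 to 5.1), in let-526. No optimal region was found among 290 in hosts for axon guidance and adhesion (Wilson upper limit 1.31%) or 212 in ion channel hosts (1.78%). None was found among 131 in nuclear hormone receptor hosts (2.85%), 100 in muscle gene hosts (3.7%) or 8 in hosts for ribosomal proteins and translation factors (32.4%). All 11 of these intervals contained the share over all intronic regions.

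By chromosome, 14 of the 57 optimal regions were on I, 12 on II, 10 on III, 6 on IV, 4 on V and 11 on X. The share of intronic regions that were optimal was highest on X, at 11 of 1153 (0.954%, 0.534 to 1.7), and lowest on V, at 4 of 1257 (0.318%, 0.124 to 0.815), and these intervals overlapped.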

How the data were processed

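The material was 2 biological replicates of whole late embryos, per the labels. The deposited lists, in build ce11, gave each region's interval, summit and signal value; per the deposited file records they were called against a control alignment for replicate 1 (30000 regions), replicate 2 (27350) and both pooled (30000), and a reproducibility filter gave 772 optimal regions. The aligner, the peak caller, the scale of the signal and the read depth were not given in the sources used here, so no interval could be put on a signal value, and control libraries were not analysed here. Lists in build ce10 were not used, and 0 columns of values were left unmapped. Summits were placed with Ensembl release 115 (WBcel235), and sequence and repeat marks came from the RefSeq assembly of the same build. Placing and tests were tested on simulated data. Shares had 95% Wilson intervals, and Fisher's exact test, two-sided, compared them, with limits on the log odds ratio and Benjamini-Hochberg adjustment over 3 tests at 0.05 (Python 3.11.15, SciPy 1.17.1, pandas 2.3.3). Intervals cover counting of regions only, and spread between animals cannot be judged from 2 replicates. The regions and gene lists were chosen with earlier results of these data known. Genes were named if they hosted the strongest 20 optimal regions, the strongest 6 in first and in later introns, 2 regions, a listed gene or one of the strongest 10 with an internal start, or lay next to the limit of the list.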

Additional observations from a re-analysis of the deposited data

How the results depend on the processing

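The low optimal share of intronic regions kept its direction and passed the threshold under all 12 alternatives run, with odds ratios of 0.127 to 0.409; for single replicates it was 0.216 and 0.356. The comparison of first and later introns, 1.71 and not past the threshold as planned, passed it under 7 of 16 distinct alternatives (leaving out regions with an internal start gave the same counts as keeping every transcript start clear, 1.45). The 7 were a gene-start window of 2000 bp upstream to 500 bp downstream (1.82), first in any transcript (2.0), first in every transcript (1.94), no single-intron genes (1.78), overlapping regions merged (1.76) and regions of both replicates at least 1000 bp from the gene start (1.88, added after seeing the data), and 1 replicate. Leaving out 1 replicate gave 1.34 to 2.08. The cause was not tested. The internal start result stayed at 2.94 to 4.63 in 12 alternatives and could not be computed with every transcript start kept clear, 2.94 to 3.77 from single replicates. The difference in exon distance, 251 bp, was 39 bp in introns of at least 1000 bp and reversed to -9 bp for the stronger 50% of the optimal regions; single replicates gave 100 to 371 bp. The GC difference was 8.37 percentage points in windows of 100 bp on either side of the summit, and 9.1 to 11.1 from single replicates. The replicate agreement, 38.6%, was 98.2% when any region of the replicate lists counted, 88.2% for the stronger 50% of the optimal regions and 17.5% for the weaker 50%. In all, 8 alternatives, including those limited to 45 to 60% GC, were added after seeing the data. No paired analysis was possible because there is 1 group.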

Other observations

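A count of all 6-base words in the 57 optimal intronic windows against the other intronic windows was looked at without a plan. The word with the largest difference was ACACGC, in 15 of 57 (26.3%, 16.6 to 39), against 252 of 7843 other intronic windows (3.21%, 2.85 to 3.63). It was in 74 of the 715 other optimal regions (10.3%, 8.32 to 12.8) and in 3.28% of all pooled regions. Within 45 to 60% GC it was in 13 of 41 (31.7%, 19.6 to 47), against 5.83% of 2316. The word was chosen as the top of that count, so no test was made.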
